A study of Mus musculus with 8 samples.

Results

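R-loop peaks of 1200 bp or less that lie deep inside protein-coding genes are described here. A union peak was taken when it was autosomal, had a mean score over 30 across the 6 libraries, was assigned to a protein-coding gene shorter than 300 kb, had its centre inside that gene, and lay over 5 kb from the transcription start site (TSS) and over 3 kb from the gene's 3′ end. The table held 28265 union peaks, 25815 of them autosomal and past the score minimum. Of these, 14173 lay inside coding genes by the same rules of position and 1814 were short. The short peaks fell in 1487 genes, and 672 of them, in 515 genes, shared their gene with a tested peak of 6 kb or more (called a long peak below). The other 1142 lay in 972 genes without one. None of these rules used the difference between genotypes, but the score minimum used its level, and 702 of 2516 short internal peaks did not pass it.

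R-loops were mapped by DRIP-seq, the sequencing of DNA pulled down with RNA:DNA hybrids by the S9.6 antibody, in cultured muscle stem cells (MuSCs, labelled muscle satellite cells) purified from adult mice. There were 3 control libraries (Ctrl, genotype Pax7CreERT/Suv4-20h1WT) and 3 mutant libraries (Kmt5b sKO, genotype Pax7CreERT/Suv4-20h1KO). Both groups carried the tamoxifen-inducible Cre driven from Pax7, a gene of satellite cells, so that Kmt5b (Suv4-20h1) was inactivated in cells with that driver, and all mice had a C57BL/6 background according to the methods of the study. Sex and age of the mouse behind each library were not used here.

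An R-loop is a structure in which a nascent RNA pairs with its template DNA strand and leaves the other strand single, and S9.6 binds the RNA:DNA hybrid. R-loops form where RNA polymerase passes, are removed by RNase H enzymes and helicases, and are known as obstacles to replication forks. Kmt5b is a methyltransferase that adds methyl groups to lysine 20 of histone H4, a mark tied to chromatin compaction, replication origins and repair. MuSCs are the Pax7-expressing stem cells that regenerate skeletal muscle. S9.6 signal reports neither gene expression nor cell identity, so the labelled cell type was not checked against markers, and Kmt5b itself held no short internal peak.

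Short peaks of this kind held mostly intronic sequence with many repeats. The middle 200 bp of 6 of them are printed as examples from the GRCm38 reference, plus strand, with capitals marking bases that the RefSeq sequence masks as repeats. Bcar3 and Trps1 hold the largest rises among genes with a long peak, Btg4 and Tfec the largest among the other genes, Dusp10 one of the lowest changes, and Chl1 one of the highest scores.
Bcar3 chr3:122308601-122308800: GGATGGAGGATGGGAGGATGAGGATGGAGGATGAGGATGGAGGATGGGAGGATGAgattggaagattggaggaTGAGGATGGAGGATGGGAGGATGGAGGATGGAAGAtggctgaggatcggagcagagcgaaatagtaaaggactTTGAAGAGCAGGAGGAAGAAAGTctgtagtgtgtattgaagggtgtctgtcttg
Trps1 chr15:50725701-50725900: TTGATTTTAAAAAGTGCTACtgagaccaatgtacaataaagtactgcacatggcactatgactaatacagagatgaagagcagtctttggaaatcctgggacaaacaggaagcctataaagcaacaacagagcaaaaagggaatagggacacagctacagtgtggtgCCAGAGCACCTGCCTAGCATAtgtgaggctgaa
Btg4 chr9:51087201-51087400: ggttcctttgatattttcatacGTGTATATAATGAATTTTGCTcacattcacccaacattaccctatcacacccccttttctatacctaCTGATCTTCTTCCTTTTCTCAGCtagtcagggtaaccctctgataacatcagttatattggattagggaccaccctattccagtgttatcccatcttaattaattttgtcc
Tfec chr6:16837001-16837200: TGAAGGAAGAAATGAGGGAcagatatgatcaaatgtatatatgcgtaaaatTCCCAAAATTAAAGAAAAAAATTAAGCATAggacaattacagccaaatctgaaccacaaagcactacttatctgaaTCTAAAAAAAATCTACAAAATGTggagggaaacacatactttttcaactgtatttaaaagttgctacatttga
Dusp10 chr1:184070501-184070700: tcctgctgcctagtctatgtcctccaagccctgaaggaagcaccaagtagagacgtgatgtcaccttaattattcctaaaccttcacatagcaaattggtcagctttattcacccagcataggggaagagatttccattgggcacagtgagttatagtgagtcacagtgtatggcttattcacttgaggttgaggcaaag
Chl1 chr6:103649101-103649300: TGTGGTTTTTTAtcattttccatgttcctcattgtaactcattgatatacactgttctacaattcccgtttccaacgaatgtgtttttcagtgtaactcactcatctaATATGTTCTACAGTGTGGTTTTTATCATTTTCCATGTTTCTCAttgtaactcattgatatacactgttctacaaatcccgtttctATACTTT
The Bcar3 window was 56.5% repeat-masked, with a run of GGA-rich units, and 76.0% of its bases were purines on the sense strand of the gene. The Dusp10 window held no masked base. Windows of the others were 20.5% to 36.0% masked. Bcar3 had the highest GC content of the windows, at 50.5%.

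Over all members, sequence differed from that of longer peaks inside coding genes. The median share of repeat-masked bases was 46.0% among short peaks, against 23.9% and 27.5% in internal peaks of 1400 to 5800 bp (in genes with and without a long peak) and 20.2% in long ones. Within the short peaks it was 38.0% where the gene had a long peak and 49.8% where it had none. GC content was alike in the last 2 groups, with medians of 40.8% and 40.5%, and was 43.5% in long internal peaks. An excess of G over C on the sense strand, a feature known to favour R-loops, was found in 58.9% of short peaks and in 86.0% of long internal peaks. It was taken over the whole peak, and the lengths were not matched (medians 1000 and 11000 bp). A run of 8 A (AAAAAAAA, either strand, in the central 400 bp) was present in 47.9% of short peaks, in 47.7% of short intergenic peaks and in 27.3% of all tested peaks. It was found in 46.4% of short peaks with a long peak in the gene and in 48.7% of the others. The repeats CACACACA and GAGAGAGA were present in 16.4% and 9.04% of short peaks, beside 13.0% and 7.88% of all tested peaks. A G-quadruplex pattern, 4 runs of at least 3 G separated by 1 to 7 bases, was present in 5.02% of short peaks and 6.46% of all tested peaks. These are letter matches in a window and say nothing of what binds there.

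Most of these peaks were intronic. Of 1813 whose gene was found in the GENCODE annotation, 319 overlapped an exon and 1494, 82.4% of the members, held no exon base. Exon overlap, by any base, was 76.5% among long internal peaks. Their median length was 11000 bp against 1000 bp, and a longer peak has more room to meet an exon. The median distance was 30.9 kb to the TSS and 35.0 kb to the 3′ end. Host genes had a median length of 109 kb where they carried a long peak and 66.2 kb where they did not. A gene held 1 short peak in 1214 cases, 2 in 226 and 3 or more in 47, with 4 at most, and the 600 peaks that share a gene are not independent of each other.

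Over short internal peaks the Kmt5b sKO libraries carried more S9.6 signal than the Ctrl libraries. A score is the authors' summed signal over the peak, scaled by spike-in reads and rounded. The median score of the 1814 peaks was 31, 32 and 29 in the Ctrl libraries (replicates 1, 2 and 3) and 49.5, 50 and 49 in the mutant ones, a ratio of 1.61 between the group means. All mutant libraries lay above all control libraries. Over long internal peaks the medians were 354, 438 and 356 in Ctrl and 393, 412 and 404 in Kmt5b sKO, a ratio of 1.05, and Ctrl replicate 2 lay above the mutant libraries. Internal peaks of 1400 to 5800 bp lay between, with ratios of 1.20 in genes with a long peak and 1.33 in the others. A rise may come from more cells with an R-loop or from more signal per cell, which cannot be told apart in these libraries.

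**Figure D1:**
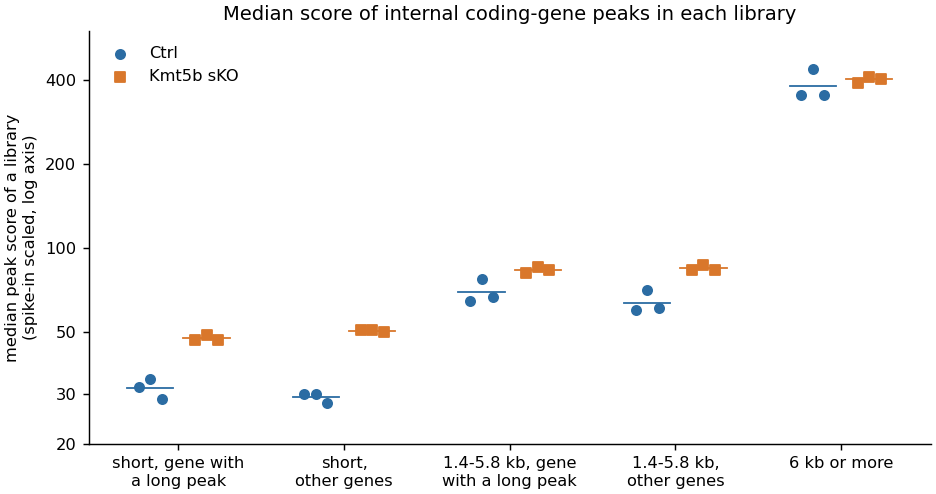
Median peak score of each library (log axis) for internal peaks of coding genes, split by peak length and by whether the gene carries a peak of 6 kb or more. Circles are the 3 Ctrl and squares the 3 Kmt5b sKO libraries, lines their means. For short peaks the Ctrl libraries sit between 28 and 34 and the Kmt5b sKO libraries between 47 and 51, while for peaks of 6 kb or more the groups overlap.

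Across the tested peaks, a call required a limma adjusted p under 0.1 together with more than 1.5-fold change. Of the short internal peaks, 1007 (55.5%) were called higher in Kmt5b sKO and 1 was called lower, where 32.9% of all tested peaks were called higher and 0.883% lower. The median log2 fold change was 0.73, with quartiles of 0.43 and 1.01, and 94.5% were above 0. Over all tested peaks the median was 0.35. The 3 mutant libraries all lay above the 3 control libraries in 1007 short peaks, by coincidence the same number, and 872 peaks met both criteria. Such separation was found in 41.5% of all tested peaks. The reverse order was seen in 5 short peaks, beside 3.81% of all tested peaks. The calls depend on the scaling. Centring each library on its median peak left 276 short peaks called higher and 15 lower, and quantile normalization 109 and 30. The share called higher was 15.2% after centring, beside 10.3% of all tested peaks, and 6.01% after quantile normalization, below the 8.02% of all tested peaks.

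The level filter shaped these counts. In 820 short peaks (45.2%) the Ctrl mean was at or under 30, so that they entered through their mutant libraries and had to be higher there. The 994 short peaks with a Ctrl mean over 30 are chosen the other way, by a high control value, and 431 of them (43.4%) were called higher with a median of 0.54. Among all tested peaks with a Ctrl mean over 30, 25.9% were called higher, with a median of 0.27. Without any level filter the median of short peaks was 0.67, with 1202 of 2516 called higher and 11 lower.

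Short peaks also have low scores, and the comparison was repeated within 1 range of scores. Of short peaks with a mean score of 30 to 60, 54.0% were called higher, with a median log2 fold change of 0.71. Internal coding peaks of 1400 to 5800 bp in the same range had 20.2% and 0.20, and short intergenic peaks 80.5% and 1.00. All other tested peaks in this range had 49.0% and 0.62. Short internal peaks thus lay above longer internal peaks in this range and below short peaks between genes. Scores were not matched inside it, with medians of 39.8 for short and 50.8 for longer internal peaks. Over all scores, a Ctrl mean at or under 30 was found in 45.2% of short internal peaks and 1324 of 2054 short intergenic ones. Among internal peaks of 1400 to 5800 bp it was 30 of 4859 with a long peak and 62 of 3920 without. The filter therefore bears on this contrast.

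Short peaks also differed by the gene they lay in. Of the 1142 in genes without a long peak, 701 (61.4%) were called higher, against 306 of 672 (45.5%) in genes with one. The median log2 fold changes were 0.78 and 0.62, a difference of 0.16, which ranged from 0.13 to 0.20 when each library was left out in turn. In Ctrl the median score was lower without a long peak, 30, 30 and 28 against 32, 34 and 29. In Kmt5b sKO it was higher, 51, 51 and 50 against 47, 49 and 47. The mean score of peaks without a long peak, divided by that of peaks with one, was 0.986, 0.937 and 0.991 in the Ctrl libraries. In the mutant libraries it was 1.10, 1.06 and 1.10. Both sets passed the same minimum on the 6-library mean, with near medians (40.5 and 39.5), so this turned order restates the difference. A Ctrl mean at or under 30 was found in 48.7% without a long peak and 39.3% with one. Above 30 in Ctrl, 49.3% and 34.8% were called higher, with medians of 0.61 and 0.44. None of the peaks without a long peak was called lower by limma, and none was lower at an unadjusted p under 0.05. With a long peak, 1 was. Leaving out Ctrl replicate 3 reduced the share called higher to 28.1% with a long peak and 43.3% without, while 27.6% of all tested peaks were then called.

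**Figure D2:**
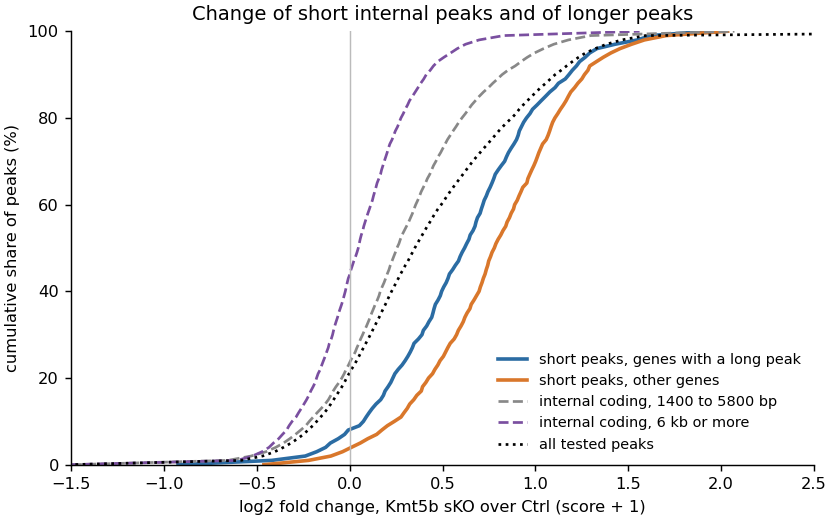
Cumulative share of peaks (%) by log2 fold change of score + 1, Kmt5b sKO over Ctrl, for short internal peaks of genes with a long peak and of other genes, for longer internal peaks and for all tested peaks. The curves of short peaks lie to the right of all tested peaks over most of their range, with medians of 0.62 and 0.78 against 0.35, and that of internal peaks of 6 kb or more crosses 50% at 0.05.

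The genes differ in more than their long peak, and the difference was followed in classes of matched peaks. It was positive at every length of the short peak, 0.05 at 400 bp, 0.06 at 600 bp, 0.11 at 800 bp, 0.18 at 1000 bp and 0.23 at 1200 bp, where the shortest class held 3 and 11 peaks. In 3 equal classes from low to high mean score it was 0.24, 0.13 and 0.13, and in 3 classes from short to long genes 0.16, 0.12 and 0.28. Classes from low to high masked share gave 0.14, 0.10 and 0.14. Within 44 joint classes of length, mean score, gene length and masked share the difference of means was positive in 33, and its weighted mean was 0.11 against 0.16 without matching. Matching on these 4 measures left a smaller difference in the same direction, and GC content, exon overlap, position in the gene and Ctrl level were not part of it. Among internal peaks of 1400 to 5800 bp the order was the same, with medians of 0.21 in genes with a long peak and 0.34 in the others.

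Sorted by the longest tested peak of the gene, the change mostly fell. It was 0.86 (median, 70.0% of 526 called higher) where no tested peak of the gene was longer than 1200 bp, 0.76 (58.7% of 322) where the longest was 1400 to 2800 bp, and 0.65 (49.0% of 294) at 3000 to 5800 bp. Above that it was 0.69 (52.4% of 227) at 6000 to 9800 bp, 0.58 (41.2% of 260) at 10 to 19.8 kb and 0.58 (43.2% of 185) from 20 kb. The quartiles of neighbouring classes overlapped throughout. No drop was seen at 6 kb itself, since genes whose longest peak was 6000 to 6800 bp had a median of 0.78 (55 peaks) and those at 5000 to 5800 bp had 0.54 (87 peaks). Moving the limit to 4 kb or 10 kb gave differences of 0.20 and 0.18.

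**Figure D3:**
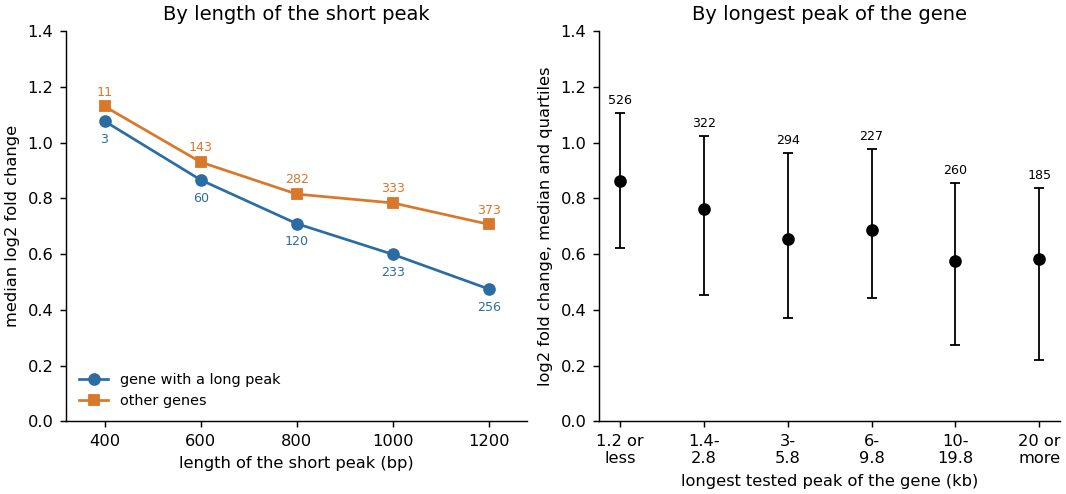
Left, median log2 fold change of short internal peaks by their length in bp, for genes with a long peak (circles) and other genes (squares), with the number of peaks beside each point. Right, median and quartiles by the longest tested peak of the host gene in kb. With a long peak, medians fall from 1.08 at 400 bp (3 peaks) to 0.47 at 1200 bp. In other genes they fall from 1.13 (11 peaks) to 0.71. Across the classes of longest peak they fall from 0.86 to 0.58.

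Length and repeat content of the short peaks moved with the change as well. From 600 bp to 1200 bp the median fell from 0.90 to 0.61 and the share called higher from 63.1% to 49.8%, while the median masked share fell from 59.8% to 39.8%. A shorter peak needs more signal per kb to pass the minimum, and the median Ctrl score per kb was 41.1 at 600 bp and 29.4 at 1200 bp. In Kmt5b sKO these were 75.6 and 45.6. Not divided by length, the median Ctrl score was 24.7 at 600 bp, under the minimum of 30, and 35.3 at 1200 bp. Most peaks of 600 bp thus entered through their mutant libraries and had to be higher there. The fall with length cannot be read apart from the filter. Just outside the rule, internal peaks of 1400 bp had a median of 0.53 with 45.1% called higher. By score, the member nearest to the minimum had a mean of 30.2, and the nearest peak outside had 30.

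Of short peaks with under 20% masked bases 27.6% were called higher (median 0.35), of those with 20% to 40% masked 46.5% (0.63), with 40% to 60% 60.5% (0.75), with 60% to 80% 70.8% (0.81) and with 80% or more 70.3% (0.88). All tested peaks outside the members had 12.2%, 23.4%, 60.4%, 74.7% and 75.4% in the same classes. Below 40% masked, short internal peaks were called more often than other peaks, and above it about as often. The sets were not matched in score or length. A Ctrl mean at or under 30 was found in 820 of 1814 short peaks and in 3266 of all 25815 tested peaks. Such peaks had to be higher in the mutant, so the filter bears on this comparison. In genes with a long peak the share called was below that of other genes in each class, for example 19.6% against 36.1% under 20% masked and 63.4% against 73.3% at 60% to 80%. Spearman's rho across short peaks was 0.30 between change and masked share, −0.23 with length and −0.02 with gene length. Peaks of the same libraries are not independent replicates.

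Inside one gene, short peaks changed more than long ones. In the 515 genes that carried both kinds, the median log2 fold change was 0.63 for the short peaks and 0.05 for the long peaks of the gene. The difference had a median of 0.52 with quartiles of 0.26 and 0.81, and was above 0 in 466 genes (90.5%). It was 0.45 to 0.55 with each library left out, and 0.45 without the level filter. Of the 672 short peaks in these genes, 264 (39.3%) had a Ctrl mean at or under 30 and had to be higher in the mutant. No long internal peak had so low a Ctrl mean, so the filter bears on the short side of this difference. Of the 1098 long peaks in these genes, 50 passed the test as higher and 25 as lower. Of the 269 genes with a short peak called higher, 23 had a long peak called higher too, and 4 had one called lower. The change of short and of long peaks went together only weakly across genes (Spearman's rho 0.22, Pearson's r 0.25, n = 515 genes that share the same 6 libraries).

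The same was seen within libraries, where scaling between libraries does not enter. The median log2 ratio of short to long score in a gene was −3.31, −3.57 and −3.40 in Ctrl and −2.88, −2.91 and −2.95 in Kmt5b sKO. The means were −3.43 ± 0.13 and −2.91 ± 0.04 (SD over 3 libraries each), and the groups did not overlap. The score minimum enters these ratios as well. Taken per kb of peak, short and long peaks had about equal signal in Ctrl, with log2 ratios of 0.02, −0.17 and −0.08, and short peaks had more in Kmt5b sKO, 0.41, 0.43 and 0.43. In 495 genes with short peaks and tested peaks of 1400 to 5800 bp but no long one, the difference was 0.29, above 0 in 355 (71.7%). Quantile normalization, which gives every library the same distribution of scores and so removes a change shared by all low peaks, left a difference of 0.03 within genes. The difference of 0.16 between genes without and with a long peak was kept under it.

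**Figure D4:**
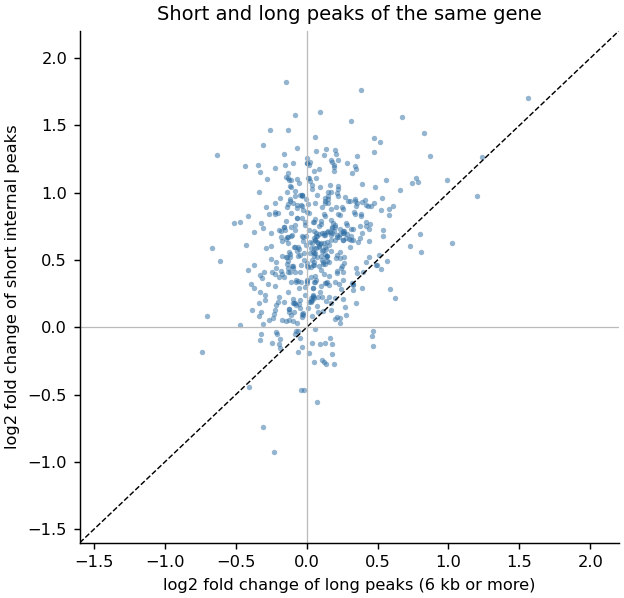
Log2 fold change (Kmt5b sKO over Ctrl) of short internal peaks against that of peaks of 6 kb or more in the same gene, 1 point for each of 515 genes, medians where a gene has several. The dashed line marks equal change. In 466 genes the point lies above the line, and long peaks gather around their median of 0.05.

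Distance to the long peak changed little. The gap from a short peak to the nearest long peak of its gene had a median of 13.4 kb. Short peaks within 2 kb of it had a median log2 fold change of 0.51 (35.3% of 85 called higher), those at 2 to 5 kb 0.69 (50.5% of 99), at 5 to 10 kb 0.55 (37.0% of 108), at 10 to 30 kb 0.66 (50.5% of 202) and from 30 kb 0.64 (47.2% of 178). The 434 upstream of the long peak had 0.64 and the 238 downstream had 0.57. No steady trend with distance was seen.

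The largest rises among genes with a long peak reached 3.80-fold on the score + 1 scale. In Bcar3, an adaptor that binds the Cas scaffold in adhesion signalling, an intronic peak at chr3:122308200-122309199 scored 26, 19 and 19 in Ctrl and 70, 69 and 118 in Kmt5b sKO. The log2 fold change was 1.93 (SE 0.31, limma adjusted p = 4.9e-08). In Trps1, a GATA-type transcriptional repressor, the peak at chr15:50725400-50726199 scored 18, 11 and 24 against 80, 71 and 45 (log2 fold change 1.85, limma adjusted p = 2.1e-05). The mutant libraries lay above the controls in both, 123.8 kb and 29.2 kb away from the nearest long peak. Cspp1, a centrosome and spindle pole protein, had 19, 16 and 12 against 53, 47 and 74, over a peak with 32 exonic bases. Clmp, a membrane adhesion protein, had 17, 13 and 20 against 55, 51 and 74, with a long peak 1.4 kb away, and Tmem116 had 21, 14 and 21 against 50, 74 and 73. For Cspp1, Clmp and Tmem116 the log2 fold change was 1.76 to 1.82, with limma adjusted p from 2.4e-05 to 1.3e-04. All 5 Ctrl means were under 30, so these peaks passed the score minimum through their mutant libraries and had to be higher there, and their p values are a description.

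In genes without a long peak, Btg4 carried 2 of the 5 largest rises. Btg4, an adaptor of the CCR4-NOT deadenylase known from oocytes, had an intronic peak at chr9:51086800-51087799 with 9, 12 and 17 in Ctrl and 45, 77 and 44 in Kmt5b sKO (log2 fold change 2.04, limma adjusted p = 1.6e-04). Its neighbour at chr9:51088400-51089399 scored 12, 12 and 18 against 75, 43 and 58 (1.98, adjusted p = 6.8e-05 from limma). Both groups were far apart at either peak. In Tfec, a transcription factor of the Mitf family, the peak at chr6:16836600-16837599 went from 13, 22 and 23 to 94, 78 and 65, a rise of 2.0 on the log2 scale (SE 0.33, limma adjusted p = 1.2e-07). Gramd1c, a sterol transfer protein, had 28, 12 and 25 against 77, 85 and 74, and Whrn, the scaffold protein whirlin of hair cell stereocilia, had 23, 23 and 17 against 87, 81 and 72. All of these Ctrl means were under 30, so the same holds for these 5 peaks.

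Among the lowest values, 1 peak passed the test. It lay in Znf521, a zinc finger protein, at chr18:13959400-13960599 and only 0.2 kb from a long peak, and scored 45, 42 and 37 in Ctrl and 27, 27 and 13 in Kmt5b sKO (log2 fold change −0.93, SE 0.41, limma adjusted p = 0.062). It was not called when any of the Ctrl libraries was left out. The next lowest were not called. They were Dusp10, a phosphatase of p38 and JNK, with 34, 52 and 37 against 25, 16 and 33 (−0.74), Chn1, a GTPase-activating protein for Rac, with 42, 53 and 30 against 27, 26 and 24 (−0.64), and Ppp2r2a, a regulatory subunit of protein phosphatase 2A, with 37, 41 and 32 against 25, 22 and 27 (−0.55). In all 4 the groups did not overlap. These genes each had a long peak.

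**Figure D5:**
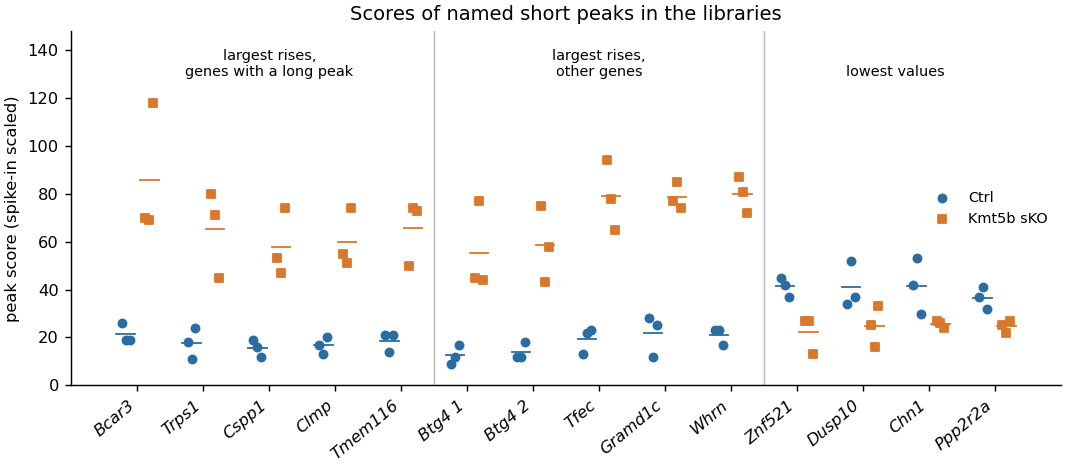
Scores of named short internal peaks in the 3 Ctrl (circles) and 3 Kmt5b sKO libraries (squares), with lines at the group means, for the largest rises in genes with and without a long peak and for the 4 lowest log2 fold changes. Ctrl scores of the rising peaks stay at 28 or below and their Kmt5b sKO scores at 43 or above. In the 4 lowest the order is turned, and of these the Znf521 peak was called.

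The median of the mean scores of short peaks was 40.2, 58 peaks exceeded 60, and 7 exceeded 100, all 7 called higher. The first was in Kctd16, an auxiliary subunit of GABA-B receptors, at chr18:40308000-40308999, with 290, 412 and 317 in Ctrl and 795, 786 and 727 in Kmt5b sKO (log2 fold change 1.19, limma adjusted p = 1.7e-14). Next came Chl1, a neural adhesion molecule, whose 400 bp peak at chr6:103649000-103649399 scored 212, 305 and 249 against 721, 677 and 576 (1.37, limma adjusted p = 3.6e-18). Fbxw4, an F-box protein of ubiquitin ligases, had 179, 226 and 180 against 382, 383 and 329, and Litaf, a protein of late endosomes, had 115, 163 and 132 against 367, 336 and 319. In each of these the groups were well apart. A further look, chosen after these values were seen, compared words of 16 bases with 29 peaks outside the members that had over 200 score per kb in Ctrl. The Chl1 peak shared 38.7% of its words with at least 3 of them and the Litaf peak 17.6%, whereas Kctd16 and Fbxw4 shared none. At a limit of 10%, 6 short peaks were at or above it, with Ank1, Mamdc2, Rasgrf2 and Spag17 as the others, while 60.4% of short peaks shared no word. Without these 6 the median was 0.72, against 0.73 with them, and 1002 peaks were called higher.

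Genes with several short peaks show how they varied within one gene. In Kansl1, a subunit of the NSL histone acetyltransferase complex, 3 of 4 were called higher. The 4 log2 fold changes ran from 0.40, not called, to 1.42. The peak at chr11:104402800-104403399 rose most, from 17, 21 and 16 to 66, 59 and 31, and the long peak of the gene scored 277, 358 and 252 against 301, 333 and 335 (log2 fold change 0.14, limma adjusted p = 0.49). In Map4, a microtubule-binding protein, 3 of 4 were called, and the 4 peaks ran from 0.51, not called, to 1.03. Of these, chr9:109985600-109986599 had 36, 38 and 56 against 61, 86 and 105. Its long peaks, of 23000 and 29400 bp, had log2 fold changes of 0.14 and 0.11 and were not called. Tbc1d1, a Rab GTPase-activating protein of glucose transporter traffic in muscle, had 1 of 4 called. That peak, at chr5:64195000-64196199, scored 33, 51 and 29 against 60, 70 and 65, and its long peaks had 0.21 and 0.11. Abcc1, a drug efflux transporter, had 1 of 3 called, with a range of 0.43 to 0.64, and long peaks at −0.06 to 0.18. No long peak of these 4 genes passed the test. Some called peaks of Kansl1, among them the one at chr11:104402800-104403399, and of Map4 had Ctrl means under 30. These passed the score minimum through their mutant libraries and had to be higher there, while no long internal peak had so low a Ctrl mean. The other called peaks of these 4 genes had Ctrl means over 30.

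Among genes without a long peak, Cog5, a subunit of a Golgi tethering complex, had 3 of 4 short peaks called higher. The 4 log2 fold changes ran from 0.65, not called, to 0.92 across a gene of 282.8 kb. Rnf115, a ubiquitin ligase, had 2 of 4 called higher. The peak at chr3:96776000-96776999 went from 35, 30 and 33 to 91, 67 and 56 (log2 fold change 1.08, limma adjusted p = 0.001), and that at chr3:96751800-96752199 from 21, 23 and 17 to 40, 34 and 63 (1.09, limma adjusted p = 0.024). Sae1, a subunit of the SUMO-activating enzyme, had 2 of 4. Its peak at chr7:16350400-16351399 scored 28, 23 and 17 against 46, 83 and 31, where Kmt5b sKO replicate 2 stood out. A peak that was not called, at chr7:16352200-16352999 in the same gene, had 35, 22 and 27 against 17, 38 and 54, with overlapping groups. Called peaks with Ctrl means of 23.7 in Cog5, 20.3 in Rnf115 and 22.7 in Sae1 passed the score minimum through their mutant libraries. They had to be higher there. Over all host genes, 898 had a short peak called higher, and no gene had short peaks called in both directions.

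Groups of genes were looked at by lists, whose counts stand beside the 55.5% called higher among all short peaks. Of 153 short peaks in any listed gene 84 (54.9%) were called higher, with a median of 0.74, and limma called 0 lower, with 0 lower at an unadjusted p under 0.05 as well. Of the 84, 42 had a Ctrl mean at or under 30 and so passed the minimum through their mutant libraries. Among the examples below these are the peaks of Nsd1, Baz1b, Smarcc1, Rfc1, Pole, Aqr, Rasa1, Ahnak, Arid4b and Cdk6 and the first of Hmga2. Of the 92 listed peaks with a Ctrl mean over 30, 42 (45.7%) were called higher. Genes of histone methylation and acetylation enzymes held 23, of which 15 rose, with a median log2 fold change of 0.88. In Kat7, the acetyltransferase HBO1, the peak at chr11:95285200-95286199 had 39, 30 and 31 against 76, 81 and 60 (log2 fold change 1.09). Those of Ezh2, the H3 lysine 27 methyltransferase of Polycomb, and Nsd1, an H3 lysine 36 methyltransferase, rose by 0.90 and 1.11. In Ep300, a coactivator acetyltransferase, the value was −0.45 with a limma adjusted p of 0.41. Chromatin remodellers held 9, of which 3 rose, in Baz1b, Ep400 and Smarcc1, with a median of 0.57.

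DNA replication and repair genes held 13, with 7 called higher and a median of 0.95. Among them were Rfc1, the large subunit of the clamp loader, where 1 of 3 rose by 1.36, and Pole, the catalytic subunit of DNA polymerase epsilon, which rose by 1.02. The peak of Aqr, an RNA helicase, rose by 1.19. Ubiquitin ligase genes held 28, of which 17 rose (median 0.82). In Trim33, a ligase of transforming growth factor beta signalling, the peak at chr3:103302600-103303799 had 38, 29 and 35 against 100, 64 and 86 (log2 fold change 1.25, limma adjusted p = 4.6e-05), and a second one in the gene had 0.53 and was not called. Regulators of small GTPases held 39, with 17 called higher and a median of 0.53. In Rasa1, a GTPase-activating protein for Ras, the peak at chr13:85257600-85258599 had 27, 29 and 24 against 71, 66 and 60 (1.27, limma adjusted p = 4.3e-04). In Tiam2, an exchange factor for Rac, one peak rose by 0.89 and the other had −0.01.

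Splicing and mRNA processing genes held 11, of which 7 rose, with a median of 0.67. In Rbm6, an RNA-binding protein, the peak at chr9:107796800-107797999 had 43, 38 and 32 against 85, 65 and 80 (1.01). Mbnl1, a regulator of splicing in muscle, rose by 1.10. Sarcomere and cytoskeleton genes held 21, with 11 called higher (median 0.75). In Ank1, the spectrin-binding ankyrin, the peak at chr8:23095400-23095999 had 82, 101 and 94 against 261, 292 and 221 (1.47), and it is one of the 6 peaks at or above the limit of shared words. Ahnak, a large scaffold protein, rose by 1.42. Of the 3 short peaks in Ttn, the giant sarcomere protein titin, none was called, with values of 0.08, 0.44 and −0.41. The study's cancer genes, chosen by the study on these libraries and so no independent evidence, held 13, of which 9 rose, with a median of 0.78. In Arid4b, a subunit of Sin3 deacetylase complexes, the peak at chr13:14173400-14174399 had 29, 38 and 21 against 84, 51 and 73 (1.22). Hmga2, a chromatin protein of proliferating cells, rose in both its peaks, by 1.43 and 0.76. Cdk6, a cell cycle kinase, rose by 1.56, and Yap1, the effector of Hippo signalling, by 1.02. Differences between lists were not tested.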

How the data were processed

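The authors trimmed reads with Trimmomatic 0.39, aligned them with STAR 2.7.3a to mm10 (GRCm38), removed duplicates with Picard 2.21.7, checked quality with FastQC 0.11.8 (versions from the submitters' processing notes) and called peaks against input. The methods name Epic2 and the notes SICER 0.0.41 as the peak caller. Peaks of all libraries were unified. The deposited score is the signal over a union peak, scaled by spike-in reads of Drosophila and rounded, so it was not treated as a count. The deposited table also gave gene, gene type and TSS distance in base pairs. The reads behind a score are unknown, so no counting interval is given. Peak coordinates are printed as deposited, and their starts may lie 1 base before a genome browser's.

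Groups came from the labels. The tests used limma 3.58.1 in R 4.3.3 (lmFit, eBayes with a trend) on log2(score + 1) over 25815 autosomal peaks, two-sided, with Benjamini-Hochberg adjustment over all of them. Fold changes understate low peaks. The prior degrees of freedom were infinite, so each variance came from the trend. The study's methods used a count model, which needs counts. Nothing in the labels says whether libraries of a group came from separate mice. The study calls them biological replicates, and its supplementary legend on increased and decreased R-loop peaks gives n in mice. Input libraries were not used. The fit was tested on simulated data.

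Short peaks and gene lists were chosen with earlier results of these data known. Named peaks were the 5 largest separated rises in either kind of gene, the called falls filled up to the 4 lowest, the 4 highest scores, the genes with most short peaks and the smallest adjusted p of each list. Further list examples were picked after their values were seen. One named peak and 1 other listed peak are counted in their list and not reported here. Sequence and repeat masking were read from the RefSeq GRCm38 sequence, exons from GENCODE vM21. Alternatives were other pseudocounts, filters, scalings, thresholds, variance models, a replicate block, peak length limits and leaving out each library, and 2 chosen after seeing the data. Tables were handled with pandas 2.3.3, numpy 2.4.6 and scipy 1.17.1 in Python 3.11.15, and plots drawn with matplotlib 3.10.9.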

Additional observations from a re-analysis of the deposited data

How the results depend on the processing

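Higher median change in genes without a long peak than in genes with one, and a higher change of short than of long peaks within a gene, kept their direction under all alternatives run. Scaling each library to the same total, centring on its median peak and quantile normalization gave 618, 276 and 109 short peaks called higher and 3, 15 and 30 lower, with medians of 0.53, 0.27 and 0.11. Under them the share called higher was 25.7%, 11.01% and 4.61% in genes with a long peak (medians 0.42, 0.16 and 0.0041) and 39.0%, 17.7% and 6.83% in the others (0.58, 0.32 and 0.17). The median of all tested peaks moved from 0.35 to 0.15, −0.11 and −0.012, and 5579, 2647 and 2071 of them were called higher and 805, 3073 and 1988 lower, because these scalings remove a shared shift by construction. Quantile normalization left 0.031 within genes.

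A mean score over 60 kept 58 short peaks, 58 called higher and 0 lower, with a median of 1.03, shares of 100% in both kinds of gene (medians 0.94 and 1.06) and 0.77 within genes. A fold change over 2 gave 465 higher and 0 lower, and shares of 17.9% and 30.2%. Of all tested peaks, 32.9% were called higher at the main settings. Their share at a score over 60 or a fold change over 2 is not given. The mean score includes the mutant libraries, so the limit of 60 is not neutral to the change. Short peaks of 800 bp or less gave 380 higher and 0 lower, medians of 0.84, 0.75 and 0.86 (all, with and without a long peak), a difference of 0.11 and 0.62 within genes. Without a level filter 11 were lower, the medians were 0.67, 0.53 and 0.74 and the difference 0.22. A pseudocount of 5 gave medians of 0.66 for all and 0.71 without a long peak, and a long-peak limit of 4 kb gave 0.81 for the latter. Without the variance trend and per kb of peak, 3 were lower each.

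Leaving out each library gave 683 to 965 higher and 0 to 2 lower, medians of 0.68 to 0.74, shares of 28.1% to 43.9% with a long peak (medians 0.56 to 0.66) and 43.3% to 58.7% without (0.76 to 0.81). Ctrl replicate 3, when left out, gave the lowest counts and shares called higher, for a reason that was not tested. Peak by peak, deviations from the group means did not go together in same-numbered libraries (r of −0.009, 0.011 and −0.027). A shift shared by all peaks does not enter r, so this cannot tell whether same-numbered libraries were prepared together. With the replicate block 996 short peaks were called higher and 1 lower.

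Some named peaks that were not called turned below 0 after centring, to −0.062 (Kansl1), −0.014 and −0.064 (Tbc1d1), −0.032 (Abcc1), −0.116 (Rnf115) and −0.213 (Sae1). After quantile normalization they had −0.23 (Kansl1), −0.039 (Map4), −0.154, −0.0093 and −0.215 (Tbc1d1), −0.181 and −0.111 (Abcc1), −0.066 and −0.296 (Rnf115) and −0.387 (Sae1). With each library left out, the Tbc1d1 peak at chr5:64347000-64348199 ranged from −0.048 (without Kmt5b sKO replicate 2) to 0.71 and the Sae1 peak at chr7:16352200-16352999 from −0.106 (without Kmt5b sKO replicate 3) to 0.70.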

Other observations

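On the X chromosome, outside the comparisons, 23 short peaks in 21 genes met the other rules. The Ctrl libraries had median scores of 22, 44 and 29 and the mutant libraries of 40, 41 and 42, a ratio of 1.295 between group means. Ctrl replicate 2 lay above all mutant libraries. In 7 of these peaks (30.4%) the mutant libraries all lay above the controls. Such separation was found in 41.5% of all tested peaks and in 55.5% of the autosomal short peaks.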
